A study of Mus musculus with 6 samples.

Results

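The genes of the proteasome, the protease that degrades ubiquitin-tagged proteins, were followed in colonic B cells, isolated by sorting from mice given lenvatinib or DMSO. The members are the genes whose symbol begins with Psm, 1 of the letters a to g and a number, without the immunoproteasome subunits Psmb8, Psmb9 and Psmb10. The rule found 48 of the 20591 genes in the table. They comprise the core (8 Psma and 8 Psmb genes), the cap (6 Psmc and 14 Psmd genes), 4 Psme activators, the inhibitor Psmf1 and 4 Psmg assembly chaperones. The remaining 3 carry a matching symbol but were given no role here: Psme2b, a retrogene copy of Psme2, and Psmc3ip and Psme3ip1, which are named as interacting proteins of Psmc3 and Psme3.

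Lenvatinib blocks several receptor tyrosine kinases, among them the VEGF and FGF receptors, and DMSO is a common solvent for such drugs. Each group had 3 libraries, labelled as biological replicates. The series title places the work in colitis and B cell trafficking, but the labels used here give no strain, age, dose, duration or colitis induction for either group, and do not say whether each library came from a separate animal. All p-values therefore weigh differences against the variation among these libraries only, and that variation may be technical.

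The proteasome is a barrel closed by caps. The barrel stacks outer rings of alpha subunits, which form the gate, on inner rings of beta subunits, of which Psmb5, Psmb6 and Psmb7 carry the cutting sites. The cap unfolds substrates with a ring of Psmc ATPases and recognises ubiquitin with Psmd subunits. Psmg chaperones build the alpha ring, and Psme activators are alternative lids. In lymphocytes and after interferon, Psmb8, Psmb9 and Psmb10 take the places of Psmb5, Psmb6 and Psmb7, which changes the peptides made for MHC class I.

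Depth ran from 26635279 to 31655500 assigned reads per library, of which the members took 0.331 to 0.36 percent. Levels are FPKM (fragments per unit of gene length and of sequencing depth), scaled between libraries. B cell markers were abundant: the 12 genes summed to 3094 to 3141 in the DMSO libraries and 2625 to 2668 in the lenvatinib libraries, and 10 of 12 fell. Marker lists of most other cell types were higher in the lenvatinib libraries. The sum of 10 T cell markers was 126 to 132 against 200.3 to 211, with 6 of 10 tested higher and 1, Cd2, lower. The sum of 8 natural killer and innate lymphoid markers was 27.7 to 34.1 against 149 to 152, with 7 of 7 tested higher. The sum of 11 colon epithelial markers was 14.1 to 14.6 against 59.5 to 62.8, with 7 of 7 tested higher. The 9 macrophage and dendritic cell markers summed to 194 to 206.5 against 225 to 233, with 3 of 8 tested higher. The 5 neutrophil markers summed to 6.2 to 7.44 against 11.6 to 16.9 (2 of 3 tested higher), and the 5 erythroid markers to 4.17 to 6.25 against 9.66 to 15 (1 of 3 higher). The 6 plasma cell markers were lower in sum, 365 to 368 against 337 to 354, with 1 higher, Jchain, and 1 lower, Irf4. A gene was tested when its scaled FPKM reached 1 in 3 or more of 6 libraries. Klrb1c of the natural killer list and Krt8, Krt19 and Cdh1 of the epithelial list reached 1 in the lenvatinib libraries only. Retnlg of the neutrophil list reached it with DMSO in replicate 3 only. Such genes entered the test through being high with lenvatinib, so the filter partly set these counts of tested markers called higher. The sums of all 8 lists did not overlap between the groups, and no marker was at 0 in every library. These differences lay between the same groups as every comparison below, and their part in the results was not tested. In such bulk samples fewer cells of a type and less RNA per cell cannot be told apart.

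A minority of the proteasome genes were slightly higher with lenvatinib, namely 5 of 14 tested genes of the core, 4 of 20 of the cap and 2 of 4 Psmg chaperones, and no member passed the test as lower. Of 46 tested members 11 rose and 0 fell at a limma adjusted p of 0.05, which is 23.9 percent higher. Among all 9937 tested genes 10.4 percent were called higher and 8.21 percent lower. At an unadjusted limma p under 0.05 16 members were higher and 1, Psme4, was lower, where 17.6 and 14.7 percent of all tested genes were. The 11 were the alpha subunits Psma1, Psma5 and Psma7, the beta subunits Psmb3 and Psmb5, the ATPases Psmc4 and Psmc5, the cap subunits Psmd1 and Psmd7, and the chaperones Psmg1 and Psmg3. The median log2 change over the tested members was 0.08, beside 0.01 over all tested genes, and the range was −0.19 to 0.53. A log2 change is the difference of mean log2(scaled FPKM + 1) between groups, which understates the change of genes with low levels.

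The number of members that rose depended on the analysis more than their direction did. It was 3 with neither trend nor robust moderation in limma (7.48 percent of all tested genes were then higher), 4 without a filter on low values (3.65 percent), and 13 with a mean filter of 5 (13.2 percent) or with FPKM as deposited (11.9 percent). It was 5 without DMSO replicate 1 (8.19 percent), 6 without DMSO replicate 3 (7.82 percent) or without lenvatinib replicate 2 (6.9 percent), and 7 without lenvatinib replicate 3 (7.84 percent). With scaling to the sum of FPKM, Psma1, Psmc4 and Psmd1 did not pass (limma adjusted p = 0.0568, 0.0603 and 0.074). Psmb5 and Psmd7 passed in all 18 alternatives tried, and Psma5 and Psma7 in 17. With limma-voom on recovered reads 12 rose, 10 of them among the 11, and 1, Psme4, fell, where 12.3 percent of all tested genes were higher and 12.9 percent lower.

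**Figure D1:**
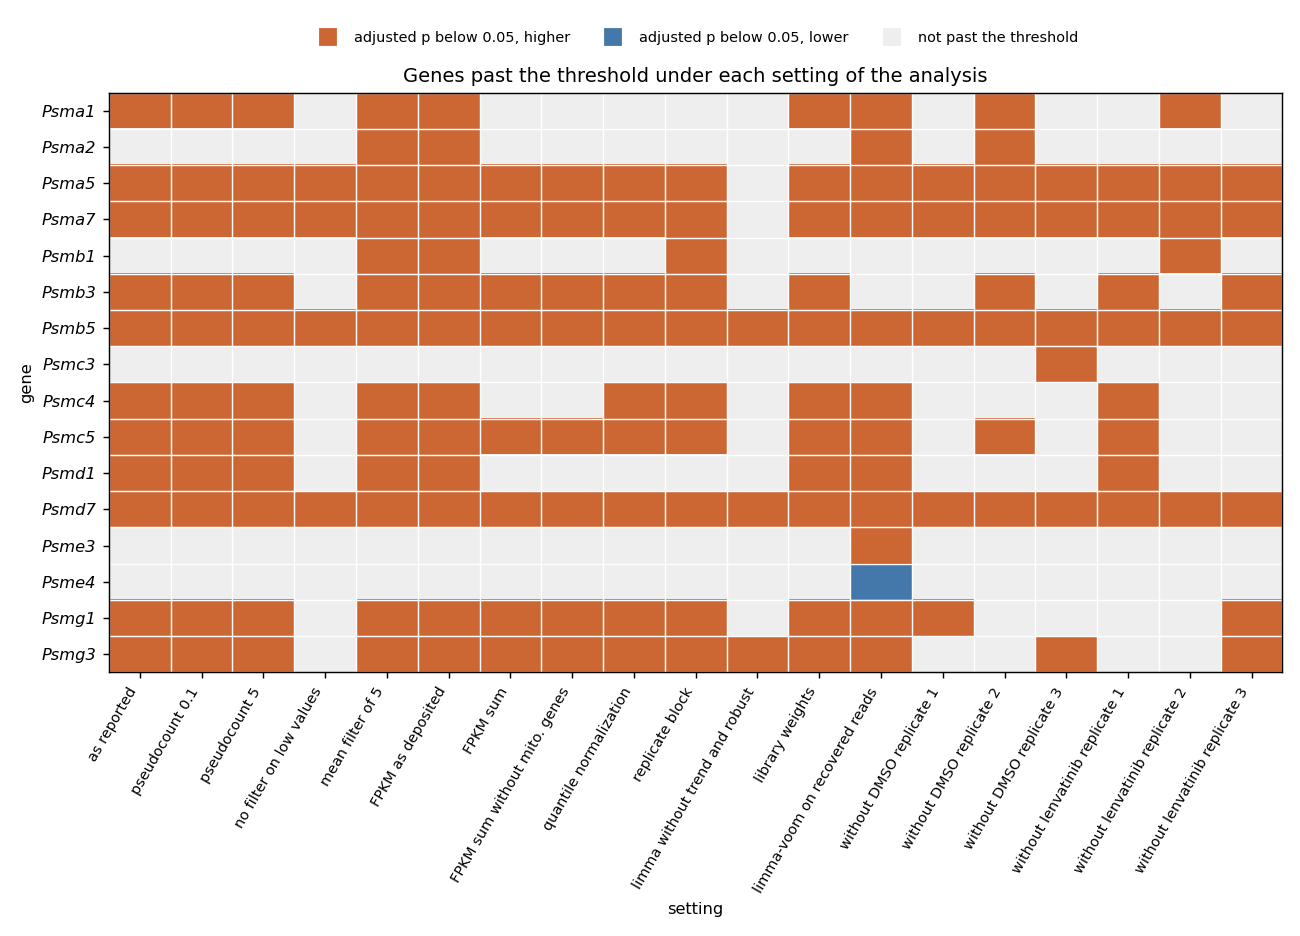
Members past the limma threshold (adjusted p of 0.05) in at least 1 analysis, as rows, under the analysis as reported and its 18 alternatives, as columns. Orange cells are called higher with lenvatinib, the blue cell lower, and grey cells did not pass; Psmb5 and Psmd7 are orange throughout.

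Direction was more uniform than the calls. The cap genes include 3 chaperones of the base, Psmd5, Psmd9 and Psmd10, which are not part of the finished particle, and of these Psmd5 (−0.03) and Psmd10 (−0.10) had lower means. Without these 3, all 31 tested members that are subunits of the core or cap had a higher mean log2 level with lenvatinib. The change ran from 0.00 for Psmc1 to 0.41 for Psmb5, while 51.5 percent of all tested genes had a higher mean. In the alternatives the number lay between 28 and 31, lowest with quantile normalization, with scaling to the sum of FPKM without mitochondrial genes, and without DMSO replicate 2 or lenvatinib replicate 3. The groups did not overlap for 15 members that were higher, 32.6 percent of those tested, where 18.9 percent of all tested genes were higher without overlap. For 1 member, Psme4, all lenvatinib libraries lay below all DMSO libraries, 2.17 percent of the members against 18.2 percent of all tested genes. These genes were measured in the same 6 libraries, so they are not independent of each other.

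**Figure D2:**
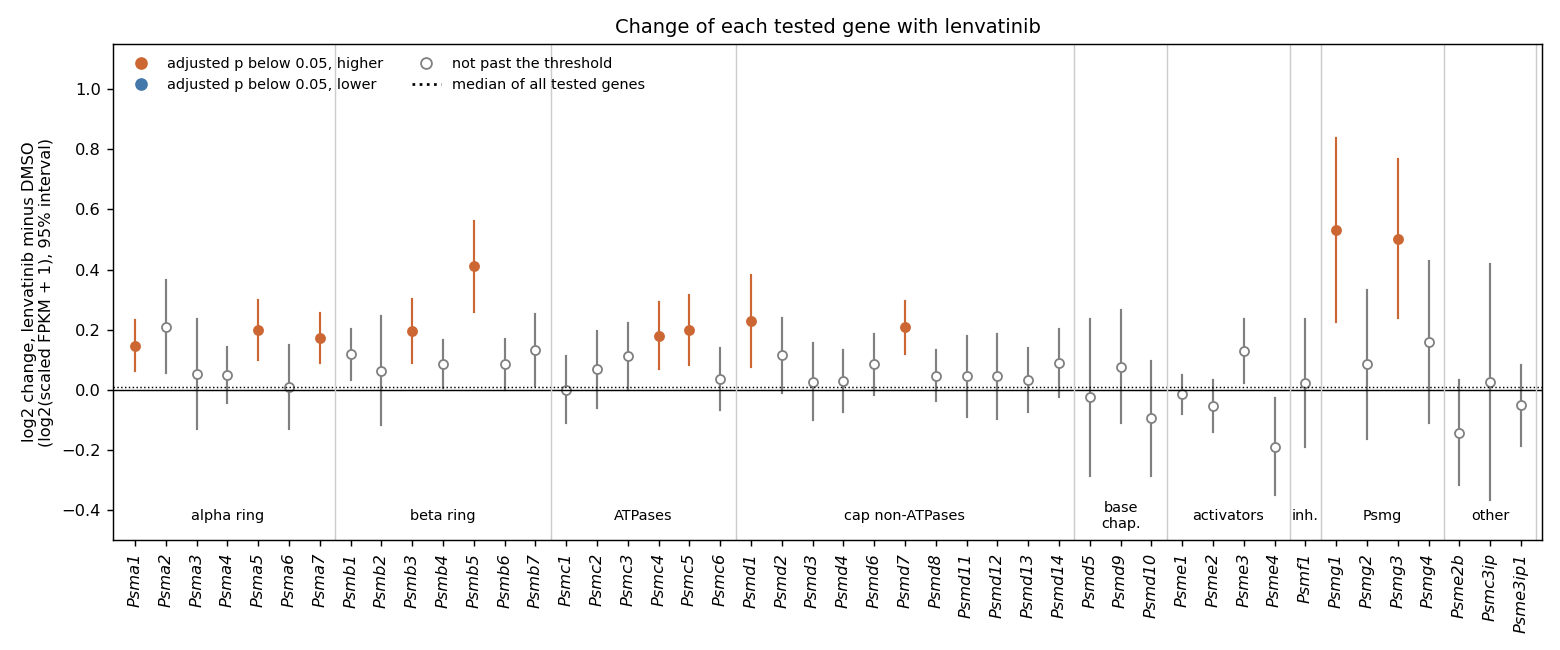
Log2 change of each of the 46 tested genes (lenvatinib minus DMSO, on log2(scaled FPKM + 1)) with its 95% interval, grouped by role along the x axis. Filled orange points passed the limma threshold as higher and open points did not pass; the core, ATPase and cap non-ATPase points lie at or above 0, and the base chaperone and activator points on both sides.

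The members were measured at widely different levels. Among tested members with a named role the mean over the 6 libraries ran from 6.23 for Psmd9 to 189 for Psme1, with a median of 50.3. Psma8, the alpha subunit of germ cells, and Psmb11, the beta subunit of the thymic cortex, did not reach the level for testing. Psma8 was at 0 in 4 of the libraries and at a scaled FPKM of 0.0153 and 0.0963 in lenvatinib replicates 2 and 3. Psmb11 was at a scaled FPKM of 0.0535 in DMSO replicate 1 and at 0 in the other 5. The median coefficient of variation between libraries of a group was 4.67 percent over the tested members, and the median depth was 2076 reads per member and library.

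**Figure D3:**
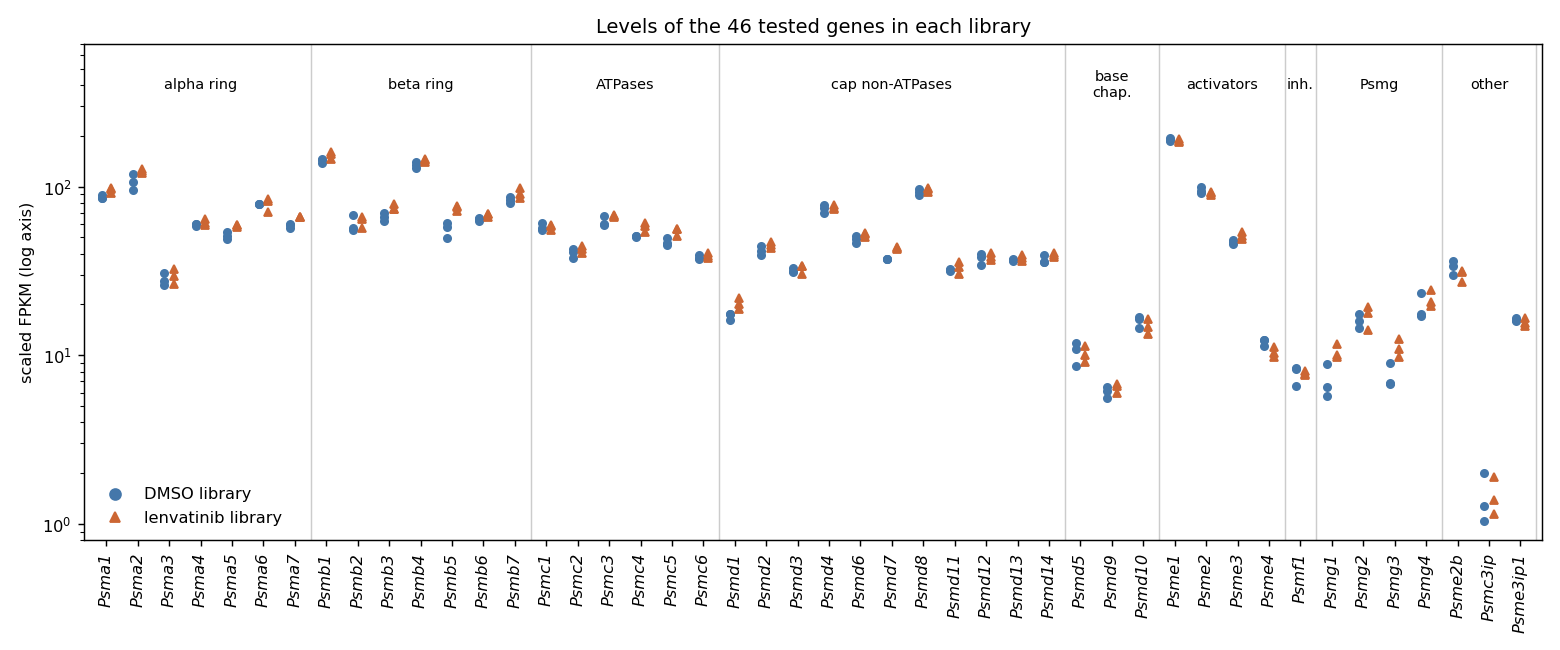
Scaled FPKM (log axis) of the 46 tested genes in each library, grouped by role along the x axis. Circles are the 3 DMSO libraries and triangles the 3 lenvatinib libraries; the core subunits lie between 26.1 and 159, and Psmd9, Psmf1, Psmg1 and Psmg3 are among the lowest with a named role.

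In the alpha ring 3 of 7 tested genes rose and 0 fell, where 10.4 percent of all tested genes rose and 8.21 percent fell. The median log2 change of the ring was 0.15. The summed level was 457, 482 and 467 in the DMSO libraries and 517, 512 and 513 in the lenvatinib libraries, so the sums did not overlap. Psma7 was at 59.8, 56.6 and 59.1 with DMSO and at 66, 66.1 and 66.1 with lenvatinib. Its log2 change was 0.17 (SE 0.037, limma adjusted p = 0.0115). Psma5 was at 53.6, 48.7 and 51 against 59.4, 57.8 and 59.2, with a log2 difference of 0.20 (SE 0.044, limma adjusted p = 0.0132). For both genes every lenvatinib library lay above every DMSO library, and both lost the call when limma was run with neither trend nor robust moderation (limma adjusted p = 0.0609 for Psma7 and 0.0577 for Psma5).

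Psma1 was at 85.1, 89 and 85.2 with DMSO and at 98.3, 92.1 and 96.8 with lenvatinib, a log2 difference of 0.15 (SE 0.0375, limma adjusted p = 0.0256). It lost the call without DMSO replicate 1 or 3 and without lenvatinib replicate 1 or 3 (limma adjusted p between 0.0712 and 0.0892). Psma2 did not pass, although its groups did not overlap. It was at 95.1, 119 and 106 against 123, 120 and 126, a log2 difference of 0.21 (SE 0.0688, limma adjusted p = 0.0636). The DMSO libraries of Psma2 spread more than the lenvatinib libraries, with an SD of 12.1 against 3.08. The other alpha genes overlapped between the groups. Psma3 had means of 28.2 and 29.3, Psma4 of 59.3 and 61.4, and Psma6 of 78.6 and 79.4. In Psma6 the lenvatinib libraries 1 and 2, at 84.8 and 82.6, lay above the DMSO libraries and the remaining library, at 70.7, below them.

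Psma3 had the lowest level of the ring in every library, although alpha subunits are used in equal number. Per library it held 2296 to 3192 reads, within the 1723 to 3934 of the other 6. The gene length recovered from the FPKM steps was 3325 bases for Psma3 against 946 to 1591 for the other 6, and FPKM divides by that length.

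In the beta ring 2 of 7 tested genes rose and 0 fell, where 10.4 percent of all tested genes rose and 8.21 percent fell. The median log2 change of the ring was 0.12. Psmb5, which carries the chymotrypsin-like site and is the target of bortezomib, changed most among the core and cap subunits. It was at 49.7, 60.4 and 57.5 in the DMSO libraries and at 76.5, 71.1 and 75.4 in the lenvatinib libraries. All lenvatinib libraries were higher, and the log2 change was 0.41 (SE 0.0674, limma adjusted p = 0.00285, 95% interval 0.26 to 0.56). Psmb3, a structural subunit, was at 62.7, 69.2 and 65.5 against 73.7, 79.1 and 73.7, also without overlap. Its log2 change was 0.20 (SE 0.0473, limma adjusted p = 0.02). Psmb3 lost the call without DMSO replicate 1 or 3 and without lenvatinib replicate 2 (limma adjusted p between 0.0584 and 0.0696), and in limma-voom (adjusted p = 0.0712).

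The other cutting subunits did not pass. Psmb6, which carries the caspase-like site, was at 62.3, 63.9 and 65.2 with DMSO and at 65.6, 68.6 and 69 with lenvatinib. Its groups did not overlap, by a narrow margin, and its log2 change was 0.08 (SE 0.038, limma adjusted p = 0.161). Psmb7, which carries the trypsin-like site, was at 79.7, 83.1 and 86.4 against 90.1, 85.6 and 98.1. The second lenvatinib library lay below the highest DMSO library, and the log2 change was 0.13 (SE 0.0527, limma adjusted p = 0.116). Psmb1, the most abundant member of the ring, had no overlap between 145, 138 and 143 and 159, 147 and 157, with a log2 difference of 0.12 (SE 0.0381, limma adjusted p = 0.0611). Psmb4 had means of 134 and 143 and Psmb2 of 59.7 and 62.3, and both overlapped.

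The promoter of Psmb5 is shown because this gene changed most in the core, that of Psmb6 because it is a catalytic partner that did not pass, and those of Psmg1 and Psmg3 because they had the largest log2 changes of all members. Transcription factors of the NRF1 and NRF2 kind (Nfe2l1 and Nfe2l2) bind the antioxidant response element, and Nfe2l1 is known to drive proteasome genes when the proteasome is impaired. The core of that element, TGACNNNGC, was searched on both strands from 250 bases before to 50 after the RefSeq start of each gene (GRCm38.p6, an earlier build than the GRCm39 of the deposited data). The 100 bases before the start follow 5′ to 3′ on the strand of the gene, with matches in capitals, for Psmb5 (chr14:54617996-54618095, minus strand), Psmb6 (chr11:70525257-70525356, plus strand), Psmg1 (chr16:95990961-95991060, minus strand) and Psmg3 (chr5:139826895-139826994, minus strand).
Psmb5: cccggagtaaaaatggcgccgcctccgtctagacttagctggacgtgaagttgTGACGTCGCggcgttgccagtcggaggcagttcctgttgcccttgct
Psmb6: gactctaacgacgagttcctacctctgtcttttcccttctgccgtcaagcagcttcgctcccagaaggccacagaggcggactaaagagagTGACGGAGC
Psmg1: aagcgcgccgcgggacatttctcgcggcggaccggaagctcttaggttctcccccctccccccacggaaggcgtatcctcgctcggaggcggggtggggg
Psmg3: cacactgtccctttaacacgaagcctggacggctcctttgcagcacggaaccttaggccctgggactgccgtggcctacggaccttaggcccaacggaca

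The match began 47 bases before the start in Psmb5 and 9 before it in Psmb6, and these letters were not in the windows of Psmg1 and Psmg3. Windows were in the table for 40 of the 48 members, of which 37 have a named role. Of these 37, 6 held TGACNNNGC (16.2 percent), namely Psmb5, Psmb6, Psmc6, Psmd9, Psmd12 and Psme4, where 16.1 percent of all 15411 genes with a window did. Of these 6 genes 1, Psmb5, rose, where 10.4 percent of all tested genes did. CCAAT, the letters of the CCAAT box, was in 35.1 percent of the 37 and 41.6 percent of all genes. GAAA repeated after any 2 bases, the core of the interferon-stimulated response element, was in 5 of the 37 (13.5 percent). These were Psmb3, Psmd4, Psmd9, Psme1 and Psmg4, and the share over all genes was 3.92 percent. Of the immunoproteasome subunits taken with Psme1 and Psme2, 1 of 5 held it, Psme1. A gene was counted as holding a motif if any of its windows did. The 37 had 1.08 windows per gene and all genes 1.26, so these shares come from unequal lengths of sequence. The searched motifs were counted on both strands, and a match is a description of letters, not a site.

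Among the ATPases of the cap 2 of 6 rose and 0 fell, with a median log2 change of 0.09. Over all tested genes 10.4 percent rose and 8.21 percent fell. Psmc5 was at 46.4, 49.6 and 45.2 with DMSO and at 51.2, 55.7 and 55.8 with lenvatinib, a log2 difference of 0.20 (SE 0.0512, limma adjusted p = 0.0257). Psmc4 was at 50.8, 50.9 and 50.5 against 53.7, 60.7 and 58.6, a log2 difference of 0.18 (SE 0.0488, limma adjusted p = 0.0317). Both genes were higher in 3 of 3 lenvatinib libraries. Psmc5 lost the call without DMSO replicate 1 or 3 or lenvatinib replicate 2 or 3 (limma adjusted p between 0.0764 and 0.086), and Psmc4 without any DMSO replicate or lenvatinib replicate 2 or 3 (between 0.0744 and 0.102).

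The other ATPases overlapped between the groups. Psmc3 was at 58.9, 60.2 and 66.7 with DMSO and at 68.2, 66 and 66.5 with lenvatinib, a log2 difference of 0.11 (SE 0.0497, limma adjusted p = 0.158). The third DMSO library of Psmc3 reached the level of the lenvatinib libraries, and without it the gene passed (limma adjusted p = 0.0343). Psmc2 was at 42.8, 40.7 and 37.6 against 42.5, 44.1 and 40.4, a log2 difference of 0.07 (SE 0.057, limma adjusted p = 0.457). Psmc6 had means of 37.9 and 38.8, and Psmc1 had means of 57.7 in both groups.

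Of the 11 cap subunits without ATPase activity 2 rose and 0 fell, and the median log2 change was 0.05. Over all tested genes 10.4 percent rose and 8.21 percent fell. Psmd7, the partner of the deubiquitinase Psmd14, was at 37.3, 37.3 and 37 in the DMSO libraries and at 43.1, 43.7 and 42.7 in the lenvatinib libraries. The gap between the groups was wide beside their spread, and the log2 change was 0.21 (SE 0.0389, limma adjusted p = 0.00574). Psmd14 itself, which removes ubiquitin chains, overlapped, with means of 36.8 and 39.1. Psmd1, a scaffold of the base, was at 17.5, 16.2 and 17.6 against 18.7, 21.8 and 20.1, a log2 difference of 0.23 (SE 0.0674, limma adjusted p = 0.0443). It lost the call without any DMSO replicate or lenvatinib replicate 2 or 3 (limma adjusted p between 0.0776 and 0.134).

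Psmd2, the other scaffold of the base, was at 39, 41.4 and 44.4 with DMSO and at 45.3, 43.2 and 46.8 with lenvatinib, a log2 difference of 0.11 (SE 0.0555, limma adjusted p = 0.191). Psmd6 was at 46.5, 48.9 and 50.9 against 50.5, 52.2 and 52.8, a log2 difference of 0.09 (SE 0.045, limma adjusted p = 0.231). In both genes 1 lenvatinib library fell within the DMSO range. Psmd4, a ubiquitin receptor, had means of 73.7 and 75.2, and Psmd8, the most abundant gene of this set, of 92.6 and 95.7. Psmd3, Psmd11, Psmd12 and Psmd13 had DMSO means of 31.9, 31.9, 37.3 and 36.7 and lenvatinib means of 32.5, 33, 38.5 and 37.6, all with overlap.

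The chaperones of the cap base, which leave before the particle is complete, were low and none of the 3 passed. Psmd5 was at 11.7, 10.9 and 8.6 with DMSO and at 10, 9.09 and 11.4 with lenvatinib, and its log2 change of −0.03 (SE 0.115, limma adjusted p = 0.907) had a 95% interval of −0.29 to 0.23. Psmd9 was at 6.13, 6.44 and 5.55 against 6.71, 6.58 and 5.99, a log2 difference of 0.08 (SE 0.0832, limma adjusted p = 0.58). Psmd10, also known as gankyrin, was at 14.5, 16.3 and 16.9 against 14.8, 13.4 and 16.4, a log2 difference of −0.10 (SE 0.0841, limma adjusted p = 0.485). In all 3 genes the groups overlapped.

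The Psmg chaperones, which work as the pairs Psmg1 with Psmg2 and Psmg3 with Psmg4, held the largest log2 changes of all members, and 1 gene of each pair rose. Psmg1 was at 8.92, 5.73 and 6.48 in the DMSO libraries and at 11.7, 9.81 and 10 in the lenvatinib libraries. Its log2 change was 0.53 (SE 0.136, limma adjusted p = 0.0248, 95% interval 0.23 to 0.84). Psmg3 was at 6.82, 6.72 and 8.95 against 12.4, 10.9 and 9.71, a log2 difference of 0.50 (SE 0.117, limma adjusted p = 0.0172). The groups did not overlap in either gene, but both rested on few reads, from 186 to 388 per library for Psmg1 and from 157 to 344 for Psmg3.

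Psmg1 lost the call without DMSO replicate 2 or 3 or lenvatinib replicate 1 or 2 (limma adjusted p between 0.0519 and 0.0858). Psmg3 lost it without DMSO replicate 1 or 2 or lenvatinib replicate 1 or 2 (between 0.0534 and 0.0618). Their partners overlapped between the groups. Psmg2 was at 16, 14.5 and 17.4 with DMSO and at 14.1, 19.4 and 17.8 with lenvatinib (log2 change 0.08, SE 0.109, limma adjusted p = 0.645). Psmg4 was at 17.4, 23.3 and 17.1 against 19.5, 20.7 and 24.5 (log2 change 0.16, SE 0.119, limma adjusted p = 0.399). The partners' 95% intervals, −0.16 to 0.33 for Psmg2 and −0.11 to 0.43 for Psmg4, include changes of the size seen elsewhere in the particle. The summed level of the 4 Psmg genes was 49.8 ± 0.533 (SD, n = 3) with DMSO and 60.2 ± 2.19 with lenvatinib.

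None of the 4 activators passed, and 3 of them had lower means with lenvatinib. Psme1 and Psme2 form the interferon-inducible lid PA28. Psme1 was at 189.5, 193 and 187 with DMSO and at 187, 193 and 184 with lenvatinib, a log2 difference of −0.02 (SE 0.0285, limma adjusted p = 0.76). Its 95% interval, −0.08 to 0.05, was the narrowest of the activators. Psme2 was at 93.4, 91.8 and 99.3 against 91.6, 89.5 and 92.8, a log2 difference of −0.05 (SE 0.0383, limma adjusted p = 0.378). Reads of Psme2 and its copy Psme2b can be split between the genes, and Psme2b was at 33.8, 30 and 36 against 31.5, 31.2 and 27.3 (log2 change −0.14, SE 0.0769, limma adjusted p = 0.24).

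Psme3 forms the nuclear lid on its own, and Psme4 encodes PA200, a lid found mainly in the nucleus. Psme3 was at 48.3, 46.6 and 45.3 with DMSO and at 53.8, 50.8 and 49.1 with lenvatinib (log2 change 0.13, SE 0.047, limma adjusted p = 0.0904). Psme4 was at 12.4, 11.3 and 12.3 against 11.2, 9.79 and 10.2 (log2 change −0.19, SE 0.0712, limma adjusted p = 0.0995). Neither overlapped between the groups, Psme3 with higher and Psme4 with lower lenvatinib libraries. In limma-voom on recovered reads both passed, Psme3 as higher (adjusted p = 0.0219) and Psme4 as lower (adjusted p = 0.013). The inhibitor Psmf1 was at 6.56, 8.38 and 8.26 against 8.07, 7.66 and 7.78, a log2 difference of 0.02 (SE 0.0939, limma adjusted p = 0.892).

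The interacting proteins with a matching symbol did not pass either. Psmc3ip, a factor of meiotic recombination, was at 1.04, 1.28 and 1.99 against 1.14, 1.89 and 1.38 (log2 change 0.02, SE 0.174, limma adjusted p = 0.94). Psme3ip1 was at 16.7, 15.8 and 16.2 against 14.9, 15.5 and 16.5 (log2 change −0.05, SE 0.0593, limma adjusted p = 0.6). Both overlapped between the groups.

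The constitutive cutting subunits were also set against the interferon-inducible ones that replace them, within each library, where the scaling cancels. With DMSO the inducible genes held 54.8, 53.2 and 51.9 percent of the summed FPKM of the 6 cutting subunits, and with lenvatinib 47.8, 47.5 and 45.2 percent. The share was thus 53.3 ± 1.5 percent (SD, n = 3) against 46.8 ± 1.5 percent, without overlap. Psmb8 per Psmb5 was 2.82, 2.31 and 2.4 with DMSO and 1.74, 1.81 and 1.7 with lenvatinib, a log2 difference of −0.51. Psmb9 per Psmb6 was 0.947, 0.961 and 0.89 against 0.704, 0.691 and 0.575, a log2 difference of −0.51. Both ratios were lower in 3 of 3 lenvatinib libraries, with a two-sided exact permutation p of 0.1, the smallest that 3 against 3 can give (0.133 adjusted over the 4 ratios). Psmb10 per Psmb7 overlapped, at 0.419, 0.423 and 0.339 against 0.372, 0.322 and 0.321 (log2 difference −0.21, exact permutation p = 0.2, adjusted 0.2).

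The ratios differed in which partner had moved. For the chymotrypsin-like site the constitutive Psmb5 rose by 0.41, while Psmb8 was at 140, 139 and 138 with DMSO and at 133, 129 and 128 with lenvatinib. Psmb8 changed by −0.10 (SE 0.0287, limma adjusted p = 0.0444), and this call was lost on leaving out any 1 of the 6 libraries (limma adjusted p between 0.0558 and 0.118) and in limma-voom (adjusted p = 0.107). For the caspase-like site it was the inducible partner: Psmb9 fell from 59.1, 61.4 and 58 to 46.1, 47.4 and 39.7, a log2 difference of −0.42 (SE 0.0643, limma adjusted p = 0.00197), beside 0.08 for Psmb6. Psmb10 did not pass, at 33.4, 35.1 and 29.3 against 33.5, 27.6 and 31.5 (log2 change −0.08, SE 0.0839, limma adjusted p = 0.584). The inducible lid per nuclear lid, Psme1 plus Psme2 per Psme3, was 5.86, 6.11 and 6.32 with DMSO and 5.18, 5.55 and 5.65 with lenvatinib. That ratio did not overlap either (log2 difference −0.16, exact permutation p = 0.1, adjusted 0.133).

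**Figure D4:**
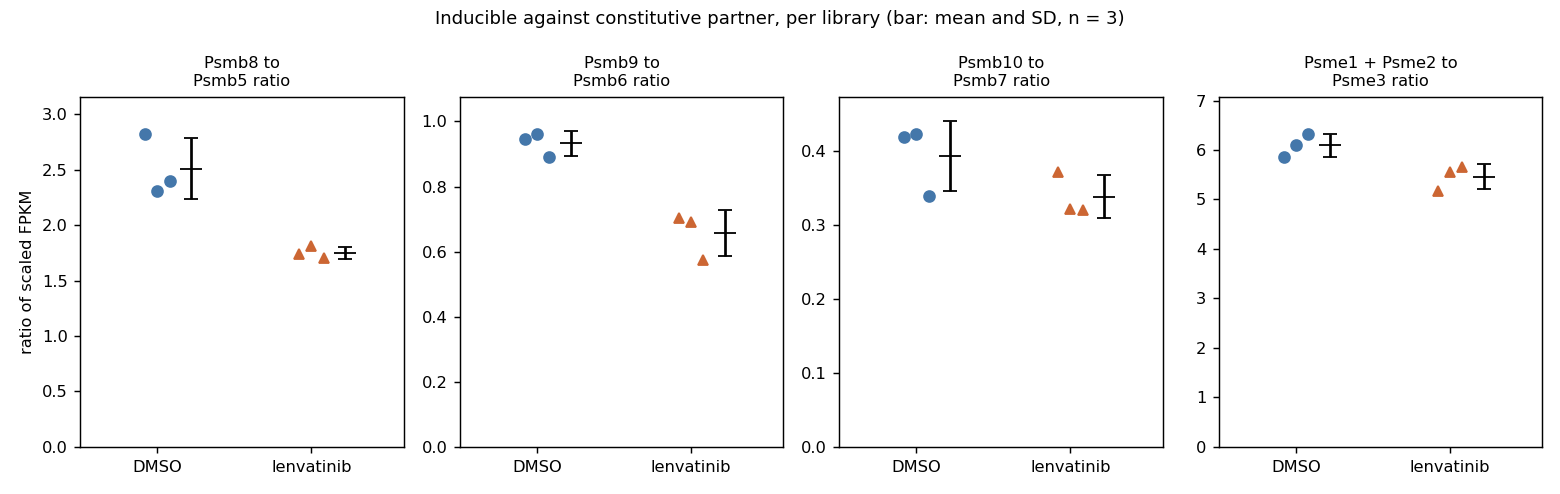
Ratios of scaled FPKM in each library, with mean and SD (n = 3) as bars. Axes start at 0 and differ between panels. The first 3 panels set an interferon-inducible subunit over the constitutive one it replaces. The last sets Psme1 plus Psme2, the inducible lid, over Psme3, the nuclear lid. The 3 lenvatinib libraries lie below the 3 DMSO libraries in every panel except that of Psmb10 per Psmb7, where the groups overlap.

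Other genes of ubiquitin handling were called at shares near those of all tested genes. Of 35 tested genes in 8 pathway lists 4 rose (11.4 percent) and 4 fell (11.4 percent), with a median log2 change of 0.03. Over all tested genes 10.4 percent rose and 8.21 percent fell. The lists include the immunoproteasome subunits above, and Psmb8 and Psmb9 are among the 4 that fell. Pomp, the chaperone that joins the barrel's parts with the Psmg proteins, rose from 81.8, 81.4 and 71.2 to 100.4, 91.5 and 105 (log2 change 0.34, SE 0.064, limma adjusted p = 0.00647). Akirin2, which brings proteasomes into the nucleus, did not pass, with means of 25.2 and 28.2. A list of 6 genes held ubiquitin receptors, deubiquitinases and other proteins of the cap or bound to the proteasome, and none of the 6 passed. Sem1 had means of 108 and 119, Adrm1 of 39.4 and 42.9, and Ube3c of 8.12 and 7.57.

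Rps27a, which encodes ubiquitin fused to a ribosomal protein, had means of 1038 and 1117, the polyubiquitin gene Ubb had means of 1073 and 1077, and neither passed. The activating enzymes Uba1 (means 49.6 and 50.9) and Uba6 (12.4 and 10.4) did not pass. The shuttle receptor Ubqln1 rose from 76.3 ± 0.994 to 86.4 ± 1.29 (SD, n = 3; limma adjusted p = 0.00506), while Ddi2 (6.31 and 5.72) and Rad23b (52.2 and 50.9) did not pass. The unfolding ATPase Vcp rose from 61.6 ± 1.76 to 69.5 ± 0.809 (limma adjusted p = 0.0114, and 0.0626 without trend and robust moderation). Its cofactor Faf2 fell from 14.8 ± 0.786 to 12.6 ± 0.277 (limma adjusted p = 0.0376), a call lost on leaving out any library except DMSO replicate 2 (between 0.0748 and 0.116). Ubxn4 (32.6 and 36) did not pass.

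The 2 factors known for proteasome promoters moved in opposite directions. Nfe2l1 was at 28.8, 30 and 29.6 with DMSO and at 34.5, 35.5 and 32.6 with lenvatinib, and rose by 0.21 (SE 0.0484, limma adjusted p = 0.0167). Its call was lost without DMSO replicate 1 or lenvatinib replicate 1 or 2 (limma adjusted p between 0.0556 and 0.0598). Nfe2l2 was at 24.8, 26.7 and 24.6 against 19.7, 21.7 and 21.1, a log2 difference of −0.27 (SE 0.0578, limma adjusted p = 0.0116). Bach1, a repressor at the same element, had means of 12.1 and 11 and did not pass.

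**Figure D5:**
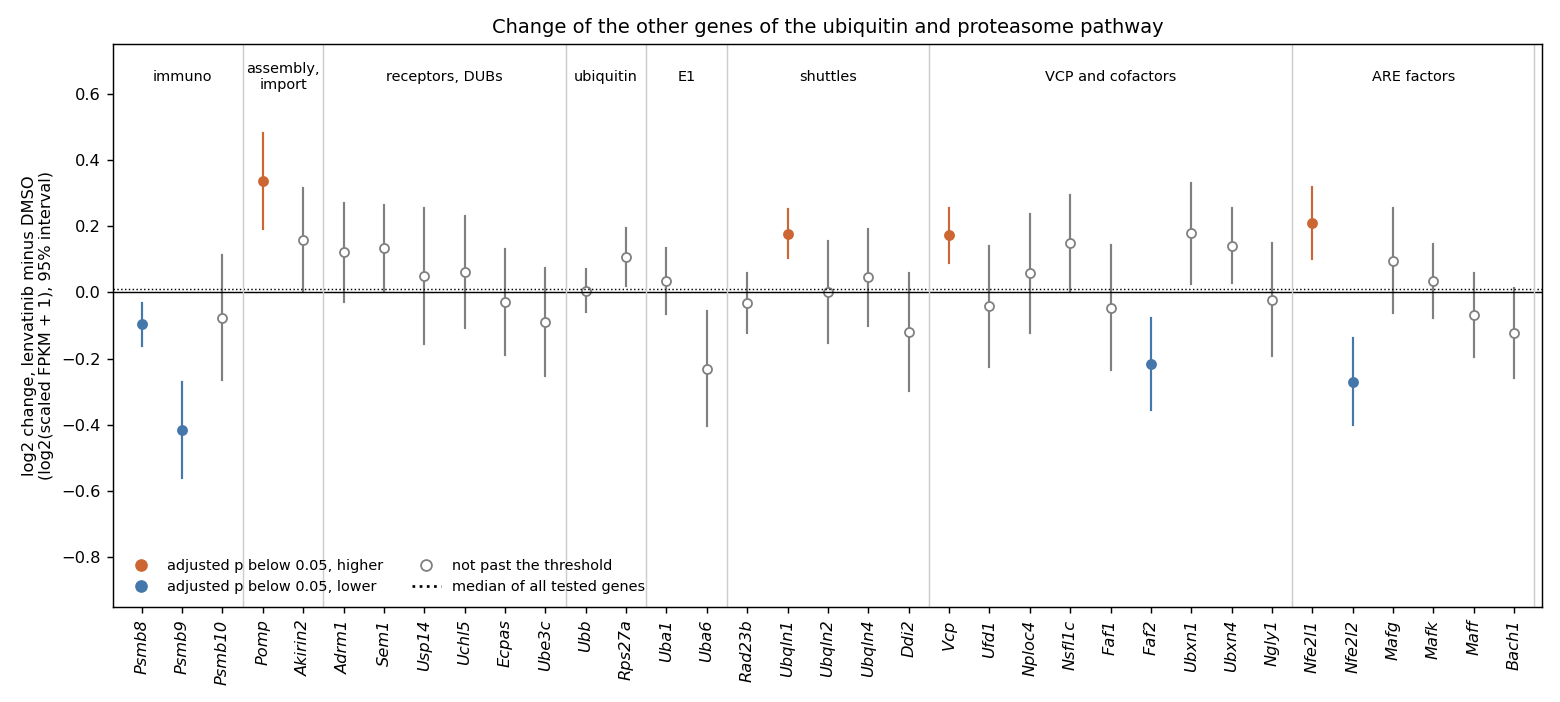
Log2 change (lenvatinib minus DMSO, on log2(scaled FPKM + 1)) with its 95% interval for the 35 tested genes of the pathway lists; DUBs are deubiquitinases, E1 the activating enzymes and ARE the antioxidant response element. Orange points rose, blue points fell and open points did not pass the limma threshold; Pomp is the highest point and Psmb9 the lowest.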

How the data were processed

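RNA from B cells sorted from mouse colons was sequenced in 3 libraries per group. HTSeq and the build GRCm39 are named in the submitters' processing notes; aligner, annotation, HTSeq version and strand setting are not given in the sources used here. A deposited table holds the authors' FPKM values in 6 columns, and each sample's description names its column.

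Each library's FPKM was divided by a median-of-ratios factor (0.992 to 1.01) computed over the genes that reached an FPKM of 1 in all 6 libraries. A gene entered the test when its scaled FPKM reached 1 in 3 or more of 6 libraries, which 9937 did. Treatment was the sole factor of a limma fit (limma 3.58.1, R 4.3.3, trend and robust moderation) to log2(scaled FPKM + 1), with two-sided p-values adjusted by Benjamini-Hochberg over all tested genes. The 4 ratios were tested by exact permutation of the libraries. The members, lists and tests were chosen with earlier results of these data known.

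Reads were recovered as whole multiples of the FPKM steps (tolerance 1e-05), with totals set by 13 mitochondrial genes of known length, for 19715 of 19715 genes with a value (100 percent). They gave depth and the limma-voom alternative. The procedures were tested on simulated data.

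Values per library are given for the up to 4 members with the smallest p in each role, the cutting subunits and the activators; other members are given by group means, and up to 3 genes of each pathway list are named. For 3 genes of these lists results are not reported here, and the lists' counts leave them out. Promoter windows came from RefSeq (GRCm38.p6). Reads of subunit genes and their processed pseudogenes, or of overlapping genes, may have been shared in counting. Alternatives were other pseudocounts (0.1 and 5), filters, scalings, moderation, library weights, a replicate block and leaving out each library.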

Additional observations from a re-analysis of the deposited data

How the results depend on the processing

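The 4 ratios kept a negative log2 difference with a pseudocount of 1, with the replicate block and on leaving out each library. The number of members that rose, 11, became 4 without a filter on low values and 3 in limma without trend and robust moderation. It lay between 5 and 8 on leaving out 1 library, and the cause was not tested. The share of all tested genes called higher went from 10.4 percent to 3.65, 7.48 and between 6.9 and 8.41 percent in the same settings. In limma-voom 1 member fell, where 12.9 percent of all tested genes did, and 0 members fell otherwise. The median change of the members, 0.08, was 0.06 with FPKM scaled to its sum, 0.05 with that sum without mitochondrial genes and 0.06 with quantile normalization. In each of these settings the median over all tested genes went from 0.01 to −0.02. Among the members and the pathway genes named above, the sign turned in 12 members and Ubb, none of them past the threshold. It also turned in pathway genes not named above, Ubqln2 and Ufd1 among them. With FPKM as deposited Psme1 was at 0.0025. With FPKM scaled to its sum, Psma6 and Ubb were at −0.02, Psmc1 at −0.03 and Psmf1 at −0.00068, and without mitochondrial genes in that sum at −0.02, −0.02, −0.03 and −0.0015, with Psmd3 at −4.1e-05. With quantile normalization Psma6 was at −0.02, Psmc1 and Psmd4 at −0.01, and Psmc3ip and Ubb at −0.04. In limma-voom Psmc1 was at −0.0036. On leaving out 1 library the range was −0.15 to 0.06 for Psmd5, −0.08 to 0.08 for Psmf1, −0.01 to 0.21 for Psmg2, −0.02 to 0.03 for Ubb, −0.02 to 0.12 for Psma3, −0.04 to 0.09 for Psma6 and −0.03 to 0.04 for Psmc1. It was −0.10 to 0.18 for Psmc3ip, −0.01 to 0.10 for Psmd11, −0.02 to 0.09 for Psmd12, −0.0013 to 0.08 for Psmd3 and −0.01 to 0.06 for Psmd4.

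Libraries with the same replicate number did not deviate together (correlations of −0.0067, 0.00649 and −0.00528 for numbers 1, 2 and 3). These correlations cannot show a small shared effect, and the labels do not say whether the number pairs the libraries. With the replicate number as a block 10 members rose, 9 of them among the 11, and 0 fell, and of all genes 894 were higher and 648 lower against 1038 and 816. The ratio differences under the pairing were −0.51, −0.51, −0.21 and −0.16, where the smallest exact p is 0.25.

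Some members rested on few reads. Psmg3 had 157 reads in its shallowest library, the fewest among tested members with a named role, and Psmc3ip had 77. How much depth limited these members was not tested, and no interval here covers more than the spread between 3 libraries per group.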
